A study of Mus musculus with 3 samples.

Results

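The genes described here are a set of 32 mouse genes for glycolysis and the response to low oxygen, out of 27998 genes counted in every library. They were taken as listed by name: 3 transporters of glucose and lactate, 8 enzymes of the entry and control steps of glycolysis, 10 enzymes of its lower part and of lactate formation, 4 genes of mitochondria and 7 other hypoxia-induced genes. The rule behind the list uses no measured value, although the list was drawn up with earlier results of these data known. Each of the 32 had at least 10 UMIs in the cells kept from every library.

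Cells came from the back skin of male mice of the C57BL/6 strain, 7 to 9 weeks old, and were released with collagenase D and DNase1. The wound beds came from full-thickness wounds of 1.0 by 0.5 cm, collected 2 and 7 days after wounding, and the reference was non-lesional dorsal skin. The labels name no mutation and no drug for any group. The study asked how interleukin and WNT signalling act on cells of the dermal fat lineage during skin development and wound regeneration.

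There was 1 library per group, made with droplet 3' chemistry that counts unique molecular identifiers (UMIs), and the labels do not say how many mice were pooled. No difference between groups therefore has a replicate check and no p-value is given. Each bracketed range is a 95% interval for counting error, exact Poisson for levels, exact binomial for shares and for ratios. The deposited matrices held 10857 barcodes and 123088680 UMIs for non-lesional skin, 8707 barcodes and 138046172 UMIs for day 2, and 7317 barcodes and 102345327 UMIs for day 7. Filters kept 9449 cells of non-lesional skin, 7440 of day 2 and 4930 of day 7, with median UMIs per cell of 9341 in non-lesional skin, 7873 at day 2 and 10501 at day 7. Between 14 and 24 cell barcodes were shared by each pair of libraries.

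Glycolysis splits glucose into pyruvate and yields ATP without oxygen. When oxygen is short, lactate dehydrogenase turns the pyruvate into lactate, which is exported. Hypoxia-inducible factors (HIFs) are transcription factors that are hydroxylated and degraded when oxygen is present. When stable they switch on most glycolytic enzymes, glucose and lactate transporters, and genes that limit pyruvate entry into mitochondria, by binding a short core motif in promoters and enhancers. A fresh wound bed has lost part of its vessels and fills with inflammatory cells, of which neutrophils rely on glycolysis for most of their ATP.

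Promoter sequence was found in the RefSeq table (GRCm38.p6) for 30 of the 32 members, as windows of 300 bases that run from 250 bases before to 50 bases after a gene's start. Slc2a3 and Ndrg1 are named only. The HIF core motif, searched as ACGTG or GCGTG on both strands with overlapping matches counted, lay in a window of 27 of the 30 members (90%). It lay in 46.7% of the 27025 genes with a window. ACGTG alone lay in 21 of the 30 members (70%), against 21.8% of all genes. A gene can have several windows. By window, either form lay in 81.4% of 43 member windows and 43.8% of all 32851, and ACGTG in 55.8% and 19.6%. Part of the set was listed as hypoxia-induced, so these shares are no independent result. A match is a run of letters, not evidence of binding.

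The promoters of 4 members with large differences in fibroblast-like cells at day 2 are shown, followed by that of Pfkfb4, the member that was lower there. The 4 are examples and not the largest differences: by ratio Pfkl and Pgk1, which are not shown, differed more than Ldha. Whether motif matches go with the size of a difference was not tested. Capitals mark the core motif, read on either strand, and each sequence is written 5' to 3' on the gene's strand.
Slc16a3: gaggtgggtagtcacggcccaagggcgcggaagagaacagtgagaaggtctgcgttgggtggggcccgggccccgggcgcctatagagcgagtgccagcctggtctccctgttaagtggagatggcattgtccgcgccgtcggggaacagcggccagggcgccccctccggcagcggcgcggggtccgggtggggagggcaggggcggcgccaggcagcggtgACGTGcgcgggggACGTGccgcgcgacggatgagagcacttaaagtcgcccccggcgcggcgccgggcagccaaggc
Ldha: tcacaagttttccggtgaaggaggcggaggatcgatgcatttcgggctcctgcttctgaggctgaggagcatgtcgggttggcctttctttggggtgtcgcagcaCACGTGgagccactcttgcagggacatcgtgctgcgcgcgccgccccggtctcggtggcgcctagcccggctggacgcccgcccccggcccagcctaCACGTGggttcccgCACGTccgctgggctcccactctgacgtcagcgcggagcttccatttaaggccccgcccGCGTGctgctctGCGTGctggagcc
Mif: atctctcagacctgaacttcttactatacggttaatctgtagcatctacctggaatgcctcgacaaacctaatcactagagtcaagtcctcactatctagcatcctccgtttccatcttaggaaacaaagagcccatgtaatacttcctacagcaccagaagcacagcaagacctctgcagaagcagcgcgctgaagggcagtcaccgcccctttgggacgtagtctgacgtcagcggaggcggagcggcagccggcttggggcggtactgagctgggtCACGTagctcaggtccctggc
Ddit4: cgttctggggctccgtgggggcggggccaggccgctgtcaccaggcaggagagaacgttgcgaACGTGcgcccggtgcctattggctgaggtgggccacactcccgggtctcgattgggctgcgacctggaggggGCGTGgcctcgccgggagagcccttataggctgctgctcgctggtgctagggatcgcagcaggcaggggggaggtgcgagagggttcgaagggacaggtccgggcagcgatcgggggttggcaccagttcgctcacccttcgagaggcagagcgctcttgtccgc
Pfkfb4: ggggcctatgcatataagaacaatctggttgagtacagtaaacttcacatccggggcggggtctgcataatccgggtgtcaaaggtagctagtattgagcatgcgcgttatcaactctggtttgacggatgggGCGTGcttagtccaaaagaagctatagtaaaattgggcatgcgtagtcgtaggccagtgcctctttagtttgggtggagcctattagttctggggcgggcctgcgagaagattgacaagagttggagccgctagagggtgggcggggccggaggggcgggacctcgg
The Slc16a3 window (chr11:120948817-120949116, plus strand) held 2 ACGTG matches close to the start. The Ldha window (chr7:46845554-46845853, plus strand) held 5 ACGTG matches, since each palindromic CACGTG is read on both strands, and 2 GCGTG matches. The Mif window (chr10:75860228-75860527, minus strand) held 1 ACGTG match. The Ddit4 window (chr10:59951721-59952020, minus strand) held 1 of each form. The Pfkfb4 window (chr9:108991652-108991951, plus strand) held 1 GCGTG match and no ACGTG.

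Over all kept cells the 32 members together took 0.295% of UMIs in non-lesional skin, 0.915% at day 2 and 0.454% at day 7. The cell types differed between the libraries, so the values below are given within classes of cells, named by fixed marker genes as X-like. A level is the UMIs of a gene per 1000000 UMIs of its class (CPM). It does not scale with transcript length, because 3' counting takes 1 tag per transcript. A member is called higher or lower when log2 of (CPM + 5) differs by 1 or more, that is 2-fold on that scale, and is tested when the pair of libraries held at least 10 UMIs of it. The added 5 CPM understates differences of low genes.

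Fibroblast-like cells were the largest class, with 5771 cells in non-lesional skin, 4179 at day 2 and 2215 at day 7. The members took 0.188% of their UMIs in non-lesional skin (0.187 to 0.190). They took 0.932% at day 2 (0.930 to 0.933), and 0.460% at day 7 (range 0.458 to 0.462). The median cell held 0.184% in non-lesional skin, 0.845% at day 2 and 0.375% at day 7. Each of the 5 role groups was highest at day 2 and lowest in non-lesional skin. The 10 enzymes of lower glycolysis took 0.101% of UMIs in non-lesional skin, 0.528% at day 2 and 0.265% at day 7. The 3 transporters took 0.00153% in non-lesional skin, 0.0258% at day 2 and 0.00769% at day 7.

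At day 2 against non-lesional skin, 21 of the 32 members were at least 2-fold higher in fibroblast-like cells, 1 was lower and 10 lay between. Of the 16004 genes tested in the same comparison 11.8% were higher and 6.24% lower. The median log2 fold was 1.76 over the members and 0.06 over all genes. Higher members were found in every role group: 2 of 3 transporters, 4 of 8 entry and control enzymes, 8 of 10 lower enzymes, 4 of 4 mitochondrial genes and 3 of 7 other hypoxia genes. The highest level of the 3 libraries was at day 2 for 26 members, at day 7 for 4 (Slc2a3, Pfkfb3, Eno2 and Ankrd37) and in non-lesional skin for 2 (Pfkp and Pfkfb4). For this count the shares over all genes are not given here.

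Several other features of these cells differed together with the members, and their part in the result was not tested. Median UMIs per fibroblast-like cell were 9595 in non-lesional skin, 25902 at day 2 and 27319 at day 7. The 8 fibroblast markers, 4 of them collagens, summed to 158066 CPM in non-lesional skin, 31920 at day 2 and 78289 at day 7, and all 8 were detected in each library. The 18 proliferation genes summed to 44.8 CPM in non-lesional skin, 1842 at day 2 and 1073 at day 7, and the 10 immediate early and heat shock genes to 16316 CPM in non-lesional skin, 8098 at day 2 and 11246 at day 7. Neutrophil markers summed to 15.3 CPM in non-lesional skin, 111 at day 2 and 22.5 at day 7. With every cell thinned to 1000 UMIs the median log2 fold of the members at day 2 was 1.75, and without cells holding a Mki67 or Top2a UMI it was 1.85. Neither value decides the part of depth or of proliferation. Levels are already relative to the UMIs of the class, so thinning mainly gives the cells equal weight. The variant without Mki67 or Top2a cells was added after the data were seen. The cells of the 3 libraries also lay in different clusters: those led by Col1a2, Col1a1 and Lum, by Pi16, by Gsn and by Tnmd in non-lesional skin, those led by Timp1 and Saa3 and by Cxcl5 at day 2, and those led by Lrrc15 and by Postn and H19 at day 7.

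**Figure D1:**
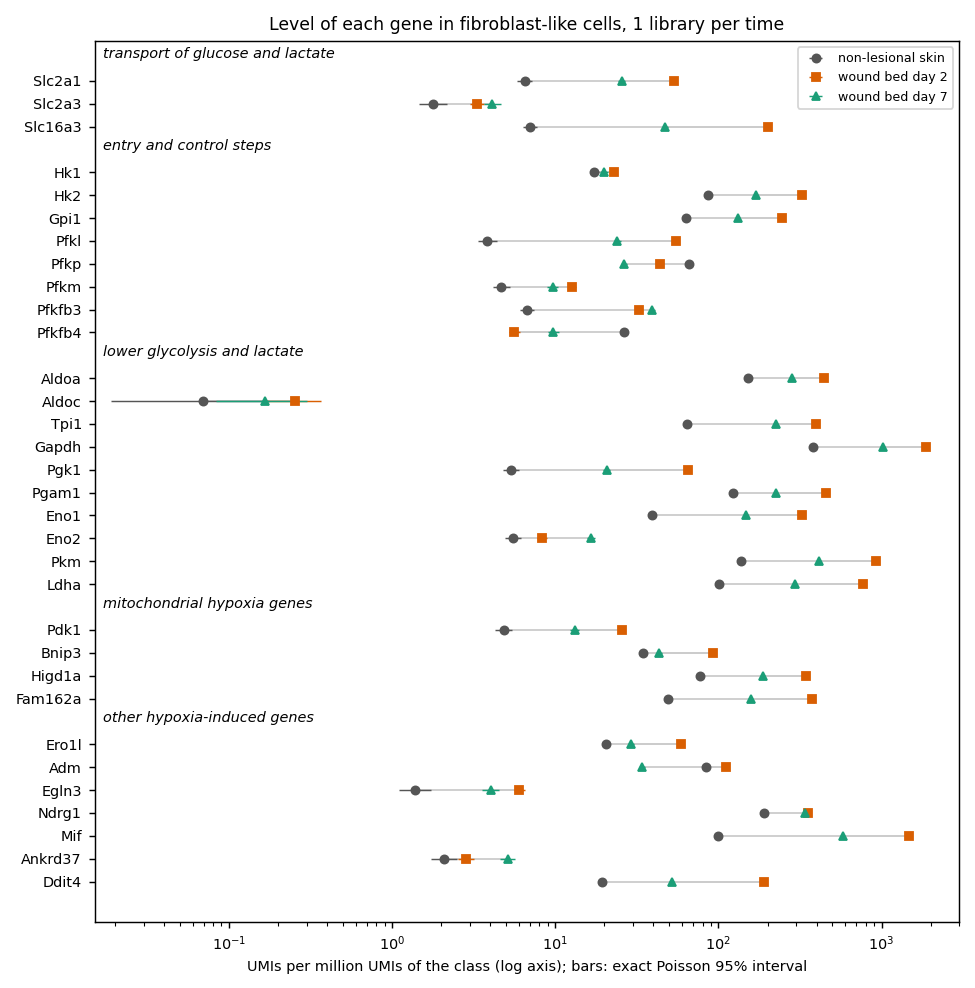
Level of each of the 32 members in fibroblast-like cells, as CPM on a log axis, in non-lesional skin, wound bed day 2 and wound bed day 7, grouped by role, with bars for the 95% Poisson interval of 1 library each. Mif stood at 1481 CPM and Slc16a3 at 200.9 CPM at day 2, against 100.04 and 7.04 CPM in non-lesional skin, while Pfkfb4 stood lower at 5.62 against 26.4 CPM.

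Slc16a3 (chr11:120948480-120960868, GRCm38), the transporter that exports lactate, had 7.04 CPM in non-lesional skin, 200.9 at day 2 and 47.3 at day 7. Its ratio was 28.5 at day 2 (25.9 to 31.6) and 6.71 (6.05 to 7.46) at day 7, each against non-lesional skin. It had the largest log2 fold of the members at day 2, 4.10. Slc2a1, the widely used glucose transporter, had 6.49 CPM in non-lesional skin, 53.3 at day 2 and 25.5 at day 7, 8.22 times its non-lesional level at day 2 (7.40 to 9.15) and 3.93 times at day 7 (3.51 to 4.41). Slc2a3, a glucose transporter of high affinity, was low throughout, with 1.78 CPM in non-lesional skin, 3.32 at day 2 and 4.12 at day 7, and was called in neither comparison.

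Among the entry enzymes, hexokinase Hk2, which traps glucose as its phosphate, had 86.7 CPM in non-lesional skin, 324 at day 2 and 170 at day 7. Hk1, the hexokinase found in most tissues, had 17.4 CPM in non-lesional skin, 22.8 at day 2 and 19.8 at day 7. Gpi1, the isomerase that follows, had 63.0 CPM in non-lesional skin, 244 at day 2 and 132 at day 7 and was higher at both wound times, with log2 folds of 1.87 at day 2 and 1.01 at day 7. Hk2 was called at day 2 (1.84) and just missed the call at day 7 (0.93).

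The 3 phosphofructokinase genes, which encode isozymes of the main control step, did not move together. Pfkl, the liver form, had 3.84 CPM in non-lesional skin, 55.0 at day 2 and 23.9 at day 7, a ratio of 14.3 at day 2 (12.5 to 16.4) and 6.24 (5.41 to 7.21) at day 7. Pfkp, the platelet form, had 65.9 CPM in non-lesional skin, 43.6 at day 2 and 26.3 at day 7, and was called lower at day 7 with a log2 fold of -1.18 and a ratio of 0.400 (0.378 to 0.423). Pfkm, the muscle form, had 4.67 CPM in non-lesional skin, 12.8 at day 2 and 9.64 at day 7. Its ratio at day 2 was 2.73, but on the scale with 5 CPM added its log2 fold of 0.88 was no call. The Pfkm gene overlaps Gm26513 on the same strand, so reads of the pair may be shared.

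Pfkp gave 88.6% (87.6 to 89.5) of the phosphofructokinase UMIs in non-lesional skin, 39.2% (38.3 to 40.0) at day 2 and, at day 7, 44.0% (42.4 to 45.5). Pfkl gave 5.16% (4.52 to 5.87) in non-lesional skin, 49.4% (48.5 to 50.3) at day 2 and, at day 7, 39.9% (38.4 to 41.5). The leading isozyme was thus Pfkp in non-lesional skin and Pfkl at day 2, and at day 7 both had similar shares.

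The paired kinase and phosphatase enzymes Pfkfb3 and Pfkfb4, which set the level of the allosteric activator of phosphofructokinase, went opposite ways. Pfkfb3, the form with the stronger kinase activity, had 6.73 CPM in non-lesional skin, 32.8 at day 2 and 39.4 at day 7, with ratios of 4.88 (4.39 to 5.43) at day 2 and, at day 7, 5.86 (5.27 to 6.54). Pfkfb4 (chr9:108991778-109032228) had 26.4 CPM in non-lesional skin, 5.62 at day 2 and 9.72 at day 7, with ratios of 0.213 (0.194 to 0.233) at day 2 and, at day 7, 0.368 (0.335 to 0.404). It was the member called lower at day 2. Pfkfb4 gave 79.7% (77.8 to 81.5) of the UMIs of the pair in non-lesional skin, 14.6% (13.6 to 15.7) at day 2 and, at day 7, 19.8% (18.4 to 21.2).

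**Figure D2:**
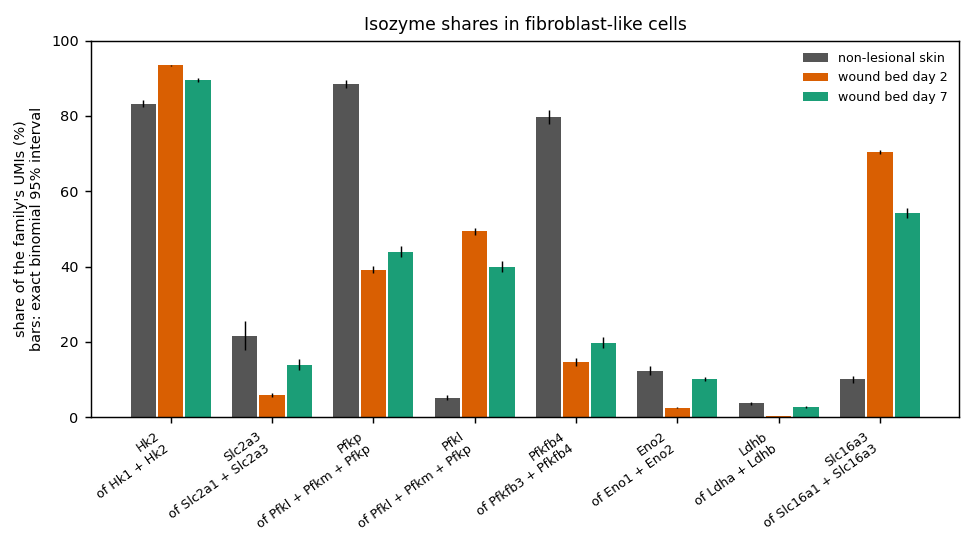
Share of UMIs, in percent, that each isozyme gave within its family in fibroblast-like cells of non-lesional skin, wound bed day 2 and wound bed day 7, with 95% exact binomial intervals. Pfkp lay below Pfkl at day 2, with 39.2% and 49.4%, and Slc16a3 gave 70.5% of lactate transporter UMIs at day 2 and 10.02% in non-lesional skin.

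The lower enzymes moved more uniformly. Gapdh, which oxidises glyceraldehyde phosphate and is often used as a reference gene, had 381 CPM in non-lesional skin, 1884 at day 2 and 1020 at day 7, with a ratio of 4.94 at day 2 (4.87 to 5.01). Pkm, the pyruvate kinase, had 138 CPM in non-lesional skin, 926 at day 2 and 415 at day 7 and log2 folds of 2.70 at day 2 and 1.55 at day 7. Ldha (chr7:46841475-46855627), the lactate dehydrogenase subunit that favours lactate formation, had 101 CPM in non-lesional skin, 774 at day 2 and 295 at day 7, 7.67 times its non-lesional level at day 2 (7.47 to 7.88). All of these were called at both wound times, each lower at day 7 than at day 2.

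The phosphoglycerate kinase gene Pgk1, an ATP-forming step, had 5.36 CPM in non-lesional skin, 65.3 at day 2 and 20.7 at day 7. Its ratio at day 2 was 12.2 (10.9 to 13.7), the widest of the lower enzymes. Eno1, the main enolase, had 39.4 CPM in non-lesional skin, 324 at day 2 and 148 at day 7. Tpi1, which interconverts the triose phosphates, had 64.6 CPM in non-lesional skin, 397 at day 2 and 226 at day 7. Both were called at day 2 and at day 7, with log2 folds of 2.89 at day 2 and 1.79 at day 7 for Eno1, and of 2.53 at day 2 and 1.73 at day 7 for Tpi1.

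Aldoa, the main aldolase, had 153 CPM in non-lesional skin, 443 at day 2 and 283 at day 7, and was called at day 2 only, with a log2 fold of 1.51 there and 0.87 at day 7. Pgam1, the phosphoglycerate mutase, had 123 CPM in non-lesional skin, 453 at day 2 and 226 at day 7, with log2 folds of 1.84 at day 2 and 0.85 at day 7. Eno2, an enolase known from neurons, was unlike the rest, with 5.54 CPM in non-lesional skin, 8.29 at day 2 and 16.6 at day 7 and a call only at day 7, where its ratio was 3.00 (2.65 to 3.41). Aldoc, the brain aldolase, had 4 UMIs in non-lesional skin, 29 at day 2 and 11 at day 7. Many of these enzymes have processed pseudogenes or near-identical copies, so Gapdh, Aldoa, Eno1, Ldha, Tpi1 and Pgk1 levels are uncertain by the reads that the counting could not place.

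Of the lactate transporters, Slc16a3 gave 10.02% of the UMIs that it shared with Slc16a1 in non-lesional skin (9.11 to 11.0), 70.5% at day 2 (70.0 to 71.0) and 54.2% (52.9 to 55.5) at day 7. Ldhb, the subunit that favours lactate use, gave 3.60% of the UMIs of Ldha and Ldhb in non-lesional skin, 0.24% at day 2 and 2.58% at day 7. Slc16a1, which carries lactate both ways, had 63.2 CPM in non-lesional skin, 84.1 at day 2 and 40.0 at day 7.

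All 4 mitochondrial hypoxia genes were higher at day 2. Fam162a, a mitochondrial protein induced by HIF, had 49.2 CPM in non-lesional skin, 374 at day 2 and 158 at day 7, with a ratio of 7.62 at day 2. Higd1a, which acts on respiratory chain complexes, had 76.7 CPM in non-lesional skin, 345 at day 2 and 189 at day 7. Those genes were called at both wound times. Pdk1, the kinase that blocks pyruvate dehydrogenase, had 4.83 CPM in non-lesional skin, 25.7 at day 2 and 13.1 at day 7. Bnip3, a receptor for removal of mitochondria, had 34.6 CPM in non-lesional skin, 92.9 at day 2 and 43.5 at day 7. Pdk1 and Bnip3 were called at day 2, with log2 folds of 1.64 for Pdk1 and 1.31 for Bnip3, and not at day 7, with 0.88 for Pdk1 and 0.29 for Bnip3.

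Of the other hypoxia genes, Mif (chr10:75859353-75860240), a cytokine that HIF induces, had 100.04 CPM in non-lesional skin, 1481 at day 2 and 577 at day 7. Its ratio was 14.8 at day 2 (14.4 to 15.2) and 5.77 (5.61 to 5.93) at day 7. Ddit4 (chr10:59949669-59951834), an inhibitor of mTOR signalling that both hypoxia and glucocorticoids induce, had 19.3 CPM in non-lesional skin, 191 at day 2 and 51.8 at day 7, with ratios of 9.90 (9.32 to 10.5) at day 2 and, at day 7, 2.68 (2.50 to 2.87). Ero1l, the oxidase that forms disulfide bonds in the endoplasmic reticulum, had 20.5 CPM in non-lesional skin, 59.2 at day 2 and 29.3 at day 7. It was called at day 2 only, with a log2 fold of 1.33 there and 0.42 at day 7.

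The remaining hypoxia genes were not called higher against non-lesional skin, and 1 of them was called lower at day 7. Adm, the vasodilator peptide adrenomedullin, had 84.1 CPM in non-lesional skin, 111 at day 2 and 33.8 at day 7. It was called lower at day 7, with a log2 fold of -1.20 and a ratio of 0.403 (0.383 to 0.424). Ndrg1, a stress-responsive gene of differentiating cells, had 191 CPM in non-lesional skin, 355 at day 2 and 338 at day 7, with log2 folds of 0.88 at day 2 and 0.81 at day 7 that missed the call. Egln3, a HIF hydroxylase that HIF itself induces, had 1.38 CPM in non-lesional skin, 6.02 at day 2 and 4.02 at day 7, and Ankrd37, an ankyrin repeat protein, had 2.09 CPM in non-lesional skin, 2.83 at day 2 and 5.11 at day 7. Egln3 was 4.35-fold higher at day 2, but at these levels the added 5 CPM kept it from a call.

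At day 7 against non-lesional skin, 16 of the 32 members were at least 2-fold higher in fibroblast-like cells, 3 were lower (Pfkp, Pfkfb4 and Adm) and 13 lay between. Of 15817 genes tested 8.85% were higher and 4.31% lower. The median log2 fold was 0.97 over the members and 0.14 over all genes. This comparison shares the non-lesional library with that at day 2. Scaling mattered more here: with libraries scaled by TMM, 11 members were higher, the median of the members was 0.61 and that of all genes 0.01.

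At day 7 against day 2, none of the 32 members was at least 2-fold higher in fibroblast-like cells and 11 were lower, of 16172 genes tested, where 2.92% were higher and 1.63% lower. The 11 were Slc16a3, Pfkl, Pgk1, Eno1, Pkm, Ldha, Bnip3, Fam162a, Adm, Mif and Ddit4. The median log2 fold was -0.87 over the members and 0.02 over all genes. The largest differences were those of Slc16a3, with 47.3 CPM at day 7 against 200.9 at day 2 (-1.98), Ddit4, with 51.8 against 191 (-1.79), and Adm, with 33.8 against 111 (-1.58). Ankrd37 (0.37), Pfkfb3 (0.23), Pfkfb4 (0.47), Eno2 (0.70) and Slc2a3 (0.13) had positive log2 folds, none of them a call.

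Fibroblast-like cells of 1 library were not uniform. At day 2 the cluster with Cxcl5 and Serpinb2 among its leading genes (1919 cells) had 1.10% of its UMIs in the members, and the cluster led by Timp1, Saa3 and Cxcl14 (2228 cells) had 0.751%. Median UMIs were 29451 in the Cxcl5 cluster and 22800 in the Timp1 cluster, and proliferation genes summed to 1678 CPM in the Cxcl5 cluster and 2024 CPM in the Timp1 cluster. Of the 32 members, 28 were above and 4 below (Slc2a3, Pfkfb4, Aldoc and Adm) in the Cxcl5 cluster. The share of all genes above or below in this pair of clusters is not given here. The members were left out of the genes that defined the clusters.

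In the Cxcl5 cluster 6 members were at least 2-fold higher and none lower, where 0.743% of 15076 genes were higher and 0.464% lower. The 6 were the 2 transporters Slc2a1 (73.0 CPM in the Cxcl5 cluster against 32.2 CPM in the Timp1 cluster) and Slc16a3 (278 against 118 CPM), and the hypoxia genes Bnip3 (133 against 49.4 CPM), Ero1l (81.5 against 35.3 CPM), Egln3 (10.1 against 1.60 CPM) and Ndrg1 (533 against 162 CPM). No glycolytic enzyme was among them.

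At day 7 too, the members differed between clusters. The cluster led by Postn, H19 and Col14a1 (566 cells, 23160 median UMIs) had 0.551% of its UMIs in the members, and the cluster led by Lrrc15, Postn and Col12a1 (1553 cells, 30692 median UMIs) had 0.437%. Proliferation genes summed to 212 CPM in the Postn and H19 cluster and 1297 CPM in the Lrrc15 cluster. Of the 32 members, 23 were above and 9 below in the Postn and H19 cluster, with a median log2 fold of 0.22. Neither the share of all genes above or below nor their median is given here. In that cluster 7 members were at least 2-fold higher and none lower, where 3.5% of 14826 genes were higher and 4.66% lower.

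The 7 held only 2 genes of glycolysis, Hk2 (419 CPM in the Postn and H19 cluster against 107 CPM in the Lrrc15 cluster) and Pfkfb3 (83.3 against 28.2 CPM). The other 5 were Ndrg1 (994 against 173 CPM), Adm (114 against 14.2 CPM), Bnip3 (98.7 against 29.0 CPM), Ankrd37 (17.1 against 2.16 CPM) and Egln3 (11.0 against 2.10 CPM). Several lower enzymes ran the other way without reaching a call: Pkm had 260 against 455 CPM, Gapdh 766 against 1087 CPM and Eno1 110 against 158 CPM. The 7 genes and these 3 enzymes thus had their higher level in different clusters of the day 7 library.

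In non-lesional skin the members took between 0.138% (the cluster led by Tnmd) and 0.224% (the cluster led by Gsn, Myoc and Clec3b) of UMIs. Adm varied most visibly there, with 209 CPM in the Gsn cluster, 166 in the Pi16 cluster, 64.9 in the Tnmd cluster and 16.8 in the Lum cluster. Its call as lower at day 7 depends on which clusters are compared: without the proliferating Lrrc15 cluster its log2 fold was 0.37.

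**Figure D3:**
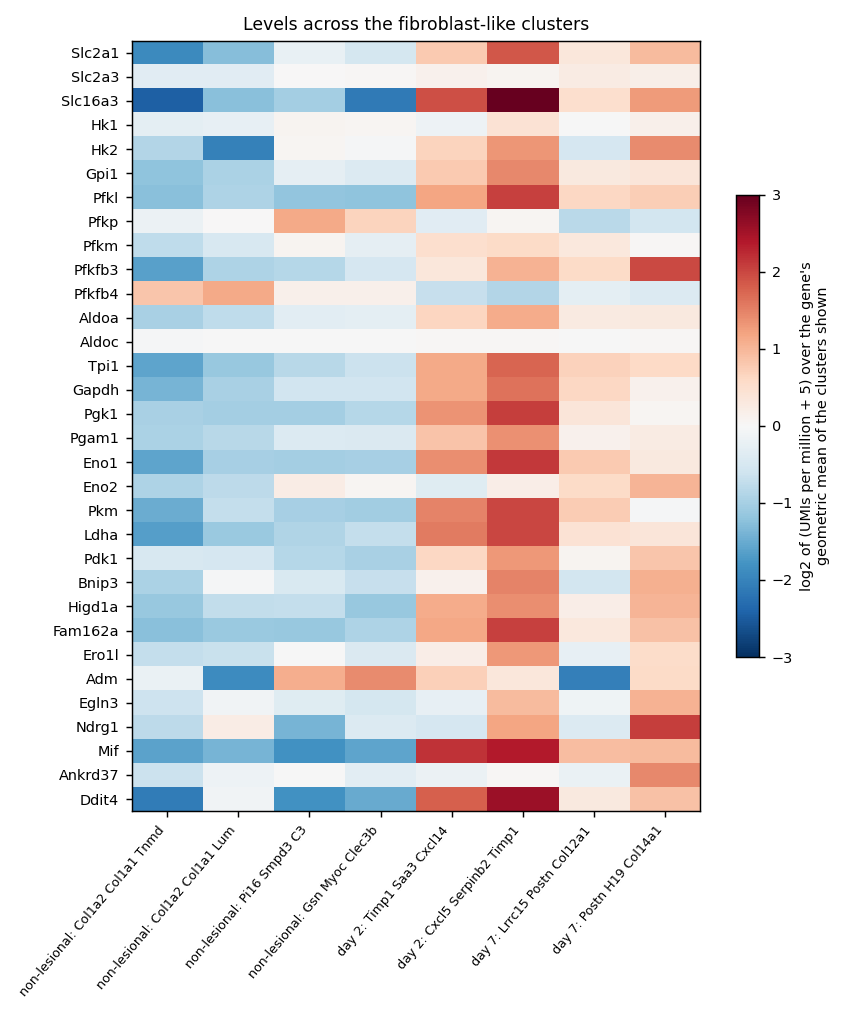
Heat map of the 32 members (down the page) in the 8 fibroblast-like clusters of non-lesional skin, wound bed day 2 and wound bed day 7 (across), coloured by log2 of CPM + 5 relative to the geometric mean of the member over these clusters. In the day 7 library Ndrg1 is redder in the Postn and H19 cluster (994 CPM) than in the Lrrc15 cluster (173 CPM), and Pkm is paler there (260 against 455 CPM).

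The genes that sense oxygen were compared in the same fibroblast-like cells. For this list and those that follow, 11.8% of all genes tested were higher and 6.24% lower at day 2 against non-lesional skin. At day 7 against non-lesional skin 8.85% were higher and 4.31% lower. Of 9 such genes, 3 were called higher at day 2 and none lower. Hif1a, the main HIF subunit, had 105.8 CPM in non-lesional skin, 683 at day 2 and 403 at day 7, and Epas1, its close relative, had 3.58 CPM in non-lesional skin, 43.2 at day 2 and 32.1 at day 7. Egln1, the hydroxylase that marks HIF for destruction, had 26.0 CPM in non-lesional skin, 87.7 at day 2 and 62.8 at day 7. Cited2, which competes with HIF for a coactivator, had 79.6 CPM in non-lesional skin, 45.7 at day 2 and 56.9 at day 7 and was no call. At day 7 these 3 were again called, with log2 folds of 1.88 for Hif1a, 2.11 for Epas1 and 1.13 for Egln1. The median over the 9 was 0.27 at day 2 and 0.40 at day 7.

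Other hypoxia-induced genes outside the set were mixed. Of 19, 6 were higher and 2 lower at day 2 (median log2 fold 0.29). At day 7, 3 were higher and 2 lower (median -0.05). Plod2, a lysyl hydroxylase that promotes collagen crosslinks, had 357 CPM at day 2 against 7.06 CPM in non-lesional skin. Angptl4, a lipase inhibitor, had 374 against 41.3 CPM. Stc1, a secreted glycoprotein, was lower at 13.3 against 81.4 CPM, and so was Ndufa4l2, a mitochondrial HIF target chosen for mention after its value was seen, at 130.2 against 465 CPM.

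Pathways that branch from glycolysis were compared in the same way. Of 7 glycogen genes, 2 were higher at day 2: Gys1, the glycogen synthase, had 45.6 CPM against 2.20 CPM in non-lesional skin, and Pgm2, of the phosphoglucomutase family, had 66.1 against 11.9 CPM. Of 7 pentose phosphate genes, 2 were higher, Tkt, the transketolase, with 154 CPM at day 2 against 47.8 CPM in non-lesional skin, and Pgd, a dehydrogenase that makes NADPH, with 95.5 against 33.7 CPM. Neither list had a lower gene.

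Among 10 genes that bring pyruvate into mitochondria 1 was higher at day 2 and none lower. It was Pdk3, another kinase that blocks pyruvate dehydrogenase, with 20.1 CPM against 3.77 in non-lesional skin. Of 11 further glycolytic isozymes tested 1 was higher, the ADP-dependent glucokinase Adpgk, with 52.4 CPM at day 2 against 20.5 CPM in non-lesional skin. None of 3 genes for lactate uptake and use was called. At day 7 the counts were 2 of 7 glycogen genes, 0 of 7 pentose phosphate genes, 1 of 10 pyruvate genes, 1 of 11 isozymes and 0 of 3 lactate genes higher, and none lower.

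Beside these, all 18 proliferation genes were higher at both wound times, with median log2 folds of 3.49 at day 2 and 2.98 at day 7. Of 8 ATF4 target and amino acid stress genes, 3 were higher at day 2 and 1 at day 7. Of 5 glucocorticoid-induced genes, 1 was higher and 3 lower at day 2, and 2 were lower at day 7. Of 10 immediate early and heat shock genes, 1 was higher and 5 lower at day 2, and 1 was higher and 2 lower at day 7.

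**Figure D4:**
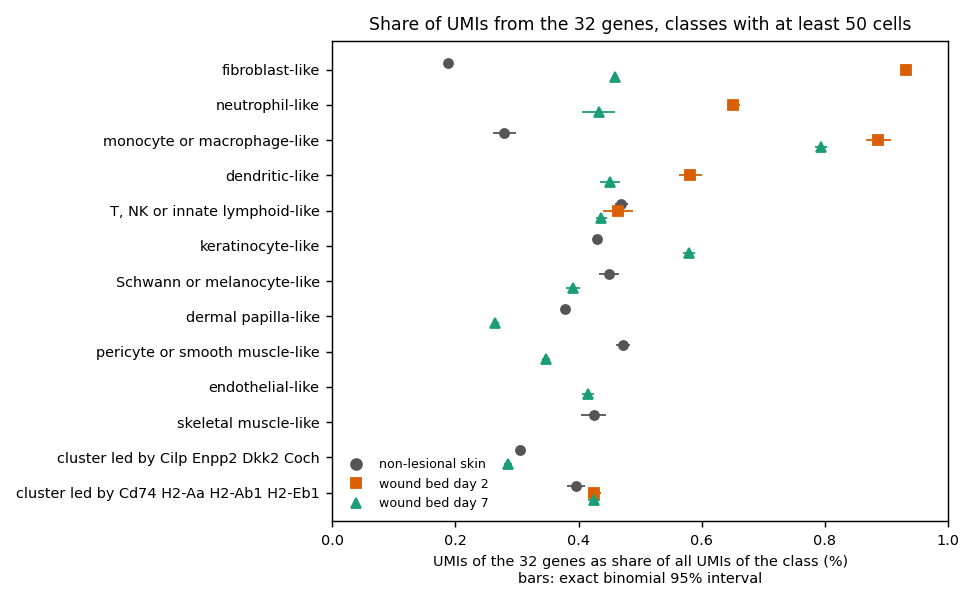
Share of UMIs, in percent, held by the 32 members in classes and clusters with at least 50 cells in a library, for non-lesional skin, wound bed day 2 and wound bed day 7, with 95% binomial intervals for 1 library each. Erythroid-like cells and the clusters led by Pecam1 and by Acta2 are not drawn. Fibroblast-like cells stood at 0.188% in non-lesional skin, 0.932% at day 2 and 0.460% at day 7, while lymphoid-like cells (T, NK or innate) stayed between 0.437% and 0.470%.

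The members' share also differed between libraries in monocyte- or macrophage-like cells. It was 0.279% in non-lesional skin (65 cells), 0.887% at day 2 (356 cells) and 0.794% at day 7 (328 cells), with median UMIs of 4840 in non-lesional skin, 1858.5 at day 2 and 5875.5 at day 7. In non-lesional skin 41 of the cells lay in a cluster led by C1qa and 24 in a cluster led by Ccl4, which held all but 1 of the wound cells. Of 28 members tested at day 2 against non-lesional skin, 17 were higher and 1 lower, and of 7549 genes 13.8% were higher and 19.6% lower. The median was 1.27 over the members and -0.16 over all genes. It was 1.18 over the members with the tested member at 0 UMIs in non-lesional skin held at a floor of 3 counts.

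Bnip3 had 164 CPM in monocyte- or macrophage-like cells at day 2, against 9.53 CPM (3 UMIs) in non-lesional skin, a ratio of 17.2 (5.76 to 84.5). Pgk1 had 89.9 against 3.18 CPM (1 UMI), a ratio of 28.3 (4.92 to 1132). Ndrg1 had 683 CPM at day 2 against 104.8 CPM in non-lesional skin, and Ddit4 104.4 against 12.7 CPM. The member called lower was again Pfkfb4, with 10.9 against 34.9 CPM and a ratio of 0.31 (0.11 to 0.83). Pfkfb3 had 53.4 against 57.2 CPM and was no call.

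At day 7 against non-lesional skin, with that library shared again, 21 of 31 members tested were higher in monocyte- or macrophage-like cells and 1 was lower, of 10192 genes with 15.2% higher and 10.8% lower. The median was 1.43, against 0.11 over all genes. It was 1.25 when the 4 members with no UMI in non-lesional skin were held at a floor of 3 counts over the class. Bnip3 had 106.9 CPM at day 7 against 9.53 CPM in non-lesional skin, Pgk1 49.6 against 3.18 CPM and Aldoa 837 against 194 CPM. Pdk1 had 22.7 CPM at day 7 against 0 UMIs in non-lesional skin. With the floor of 3 counts over the class (9.53 CPM) Pdk1 was 2.38-fold higher. The exact interval of its ratio started at 1.88. Pfkfb4 was lower, with 11.9 CPM at day 7 against 34.9 CPM in non-lesional skin, and Pfkp had 92.6 against 104.8 CPM.

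Between day 7 and day 2 these cells held few calls. Of 32 members 1 was higher and 1 lower, of 10305 genes with 11.1% higher and 3.12% lower, and the median was -0.11 against 0.24 over all genes. Hk2 was higher, with 108.7 CPM at day 7 against 48.6 CPM at day 2, and Ndrg1 lower, with 295 against 683 CPM. Slc16a3 had 56.6 CPM at day 7 against 111.7 CPM at day 2, Ero1l 128 against 243 CPM and Ddit4 54.9 against 104.4 CPM, none of them a call.

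Free RNA from broken cells reaches all droplets. From the collagen level in monocyte- or macrophage-like cells, free RNA of fibroblast-like cells could give at most a median of 0.767% of a member's level in non-lesional skin, 9.93% at day 2 and 5.68% at day 7. At day 2 this ran up to 80.5% for Adm, 76.2% for Hk2 and 47.7% for Fam162a. In the same cells neutrophil markers summed to 60.4 CPM in non-lesional skin, 959 at day 2 and 180 at day 7, fibroblast markers to 1455 CPM in non-lesional skin, 2669 at day 2 and 7197 at day 7, and erythroid markers to 34.9 CPM in non-lesional skin, 2921 at day 2 and 267 at day 7. Their part in the counts was not tested.

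Neutrophil-like cells were found almost only in the wounds, with 5 cells in non-lesional skin, 2031 at day 2 and 177 at day 7. Their median UMIs were 886 at day 2 and 1168 at day 7, so single genes rest on few UMIs. The members took 0.432% of UMIs at day 7 and 0.652% at day 2. Of 30 members tested at day 7 against day 2, none was higher and 12 were lower, of 7417 genes with 7.47% higher and 11% lower. The median was -0.65, against 0.03 over all genes.

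Among those lower at day 7 in neutrophil-like cells were Pfkl, Fam162a, Bnip3 and Ero1l. Pfkl had 0 UMIs at day 7 against 30.3 CPM at day 2. With a floor of 3 counts over the class (12.9 CPM) Pfkl was 2.35-fold lower. The exact interval of its ratio allowed a difference as small as 1.86-fold. Fam162a had 8.61 CPM at day 7 against 65.0 CPM at day 2, Bnip3 21.5 against 123.8 CPM and Ero1l 77.5 against 309 CPM. The members with the largest positive log2 folds missed the call. They were Pfkfb3, with 318 at day 7 against 173 CPM at day 2, Slc2a3, with 585 against 330 CPM, Hk2, with 129 against 71.8 CPM, and Ndrg1, with 172 against 97.8 CPM.

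The transporters of neutrophil-like cells differed from those of fibroblast-like cells. Slc2a3 gave 78.2% (75.3 to 80.9) of the glucose transporter UMIs in neutrophil-like cells at day 2, against 5.86% (5.30 to 6.47) in fibroblast-like cells of that library. Slc16a3 gave 96.7% (95.004 to 97.9) of the UMIs of the lactate transporter pair in neutrophil-like cells. Free RNA of fibroblast-like cells could give 0.175% of the Slc2a3 level of neutrophil-like cells at day 2 and 11.3% of that of Slc16a3. It could give up to 99.8% of Fam162a and 108% of Adm at day 2, and up to 305% of Fam162a at day 7. These shares are upper limits, and at them the levels of these 2 genes could not be told apart from free RNA. The median over the members was 24.1% at day 2 and 23.3% at day 7. In the reverse direction, free RNA of neutrophil-like cells could give a median of 0.09% of the members' level in fibroblast-like cells at day 2.

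Lymphoid-like cells, named from markers of T, NK and innate cells, kept a level share, with 0.470% in non-lesional skin (434 cells), 0.463% at day 2 (185 cells) and 0.437% at day 7 (689 cells). Their median UMIs were 3444 in non-lesional skin, 1180 at day 2 and 2291 at day 7. In the same order, the cluster led by Cd52 held 325, 136 and 349 of these cells. The cluster with Foxp3 among its leading genes held 36, 49 and 288, and that with Cd7 and Nkg7 held 73, 0 and 52. The part of this make-up was not tested. At day 2 against non-lesional skin 5 of 29 members were higher and 3 lower, of 9124 genes with 16.4% higher and 9.94% lower, and the median was 0.19 against 0.22 over all genes. Ddit4 had 236 CPM at day 2 against 40.5 CPM in non-lesional skin, and Pdk1 51.4 against 9.81 CPM. Adm had 30.8 against 3.68 CPM and Fam162a 65.1 against 27.0 CPM, and Slc16a3 was the fifth. The 3 lower members were Pfkp (37.7 CPM at day 2 against 157 CPM in non-lesional skin), Pgam1 (72.0 against 196 CPM) and Eno1 (96.0 against 199 CPM). Their day 2 levels rest on 11 UMIs for Pfkp, 21 for Pgam1 and 28 for Eno1. Both counts of calls, 5 higher and 3 lower of 29, are near the shares of all genes. Free RNA of fibroblast-like cells could give at most a median of 21.8% of the members' level at day 2. For a single member it ran up to 86.2%. Of the 5 higher members, Slc16a3 had 27.4 CPM, Fam162a 65.1 CPM and Adm 30.8 CPM at day 2. Fibroblast-like cells of that library had 200.9 CPM of Slc16a3, 374 CPM of Fam162a and 111 CPM of Adm. The part of free RNA in these calls was not tested.

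Set against non-lesional skin at day 7, 4 of 31 members were higher in lymphoid-like cells and none lower, of 10903 genes with 13.6% higher and 3.93% lower. They were Ddit4 (213 CPM at day 7 against 40.5 CPM in non-lesional skin), Ndrg1 (199.5 against 71.8 CPM), Pdk1 (29.1 against 9.81 CPM) and Aldoc. At day 7 against day 2 none of 31 was higher and 1, Adm, was lower, of 10337 genes with 8.99% higher and 3.36% lower.

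Keratinocyte-like cells were compared at day 7 (96 cells, 0.580% of UMIs in the members) against non-lesional skin (1537 cells, 0.430%). The cluster led by Krt14 and Krt5 held 69 of these cells at day 7 and 624 in non-lesional skin, and clusters led by other keratins held the rest. Neutrophil markers summed to 508 CPM at day 7 and 14.1 CPM in non-lesional skin. The part of these differences was not tested. Of 32 members 3 were higher and none lower, of 13628 genes with 4.7% higher and 4.07% lower. Ddit4 had 142 CPM at day 7 against 40.4 CPM in non-lesional skin, Hk2 158 against 50.9 CPM and Fam162a 408 against 177 CPM.

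In the other named classes compared with non-lesional skin the share of UMIs in the members was lower at day 7. Pericyte or smooth muscle-like cells had 0.347% at day 7 (190 cells) and 0.472% in non-lesional skin (241 cells), with none of 31 members higher and 4 lower, of 11444 genes with 16.7% higher and 8.68% lower. The 4 were Tpi1 (174 CPM at day 7 against 413 CPM in non-lesional skin), Ankrd37 (14.8 against 41.0 CPM), Slc2a3 (26.0 against 66.2 CPM) and Ndrg1 (50.8 against 119.5 CPM). Markers of this class moved too. Rgs5 and Kcnj8, known from pericytes, had 8733 and 174 CPM at day 7 against 1629 and 12.2 CPM in non-lesional skin. Myh11, the smooth muscle myosin, and Mustn1 had 698 and 339 CPM at day 7 against 3887 and 1835 CPM in non-lesional skin. Fibroblast markers summed to 15348 CPM in these cells at day 7 and 1716 CPM in non-lesional skin. The part of these markers in the 4 calls was not tested.

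Schwann or melanocyte-like cells had 0.391% of UMIs in the members at day 7 (87 cells) and 0.450% in non-lesional skin (166 cells). Of 28 members 1 was higher and 4 lower, of 10092 genes with 14.5% higher and 10.7% lower. Hk2 had 79.2 CPM at day 7 against 17.5 CPM in non-lesional skin, while Ndrg1, whose loss causes a neuropathy of Schwann cells, had 250.5 against 1654 CPM. Bnip3 had 3.64 against 34.9 CPM and Ddit4 35.5 against 98.4 CPM. Median UMIs were 11579 at day 7 and 2795.5 in non-lesional skin. Free RNA of fibroblast-like cells could give at most a median of 32.7% of the members' level at day 7 and 7.22% in non-lesional skin. For a single member it ran up to 270% at day 7 and 241% in non-lesional skin. Fibroblast-like cells had 170 CPM of Hk2 at day 7. The part of free RNA in these calls was not tested.

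Dermal papilla-like cells had 0.265% at day 7 (274 cells) and 0.378% in non-lesional skin (113 cells), and the cells of each library lay in a different cluster. Of 31 members 3 were higher (Fam162a, Pfkm and Pdk1) and 5 lower (Ndrg1, Pfkp, Pgam1, Slc2a1 and Eno2), of 11959 genes with 22.1% higher and 7.63% lower. Ndrg1 had 19.4 CPM at day 7 against 240.2 CPM in non-lesional skin.

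Dendritic-like cells at day 7 against day 2 had no call among 26 members in either direction, where 3.54% of 7645 genes were higher and 5.83% lower. Of 2 unnamed clusters, that led by Cilp and Enpp2 had 1 of 31 members higher and 2 lower at day 7 against non-lesional skin, where 6.2% and 5.41% of 11853 genes were higher and lower. The cluster led by Cd74 and H2-Aa had 4 of 29 higher and 1 lower at day 2 against non-lesional skin (13.9% and 5.84% of 9329 genes), 6 and 1 of 29 at day 7 against non-lesional skin (10.4% and 3.55% of 9522 genes), and 0 and 1 of 30 at day 7 against day 2 (3.72% and 2.12% of 10120 genes). In the Cd74 cluster Ddit4 had 138 CPM at day 2 against 8.204 CPM in non-lesional skin, and Slc2a3 was lower, with 21.3 CPM at day 2 against 56.1 CPM in non-lesional skin.

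**Figure D5:**
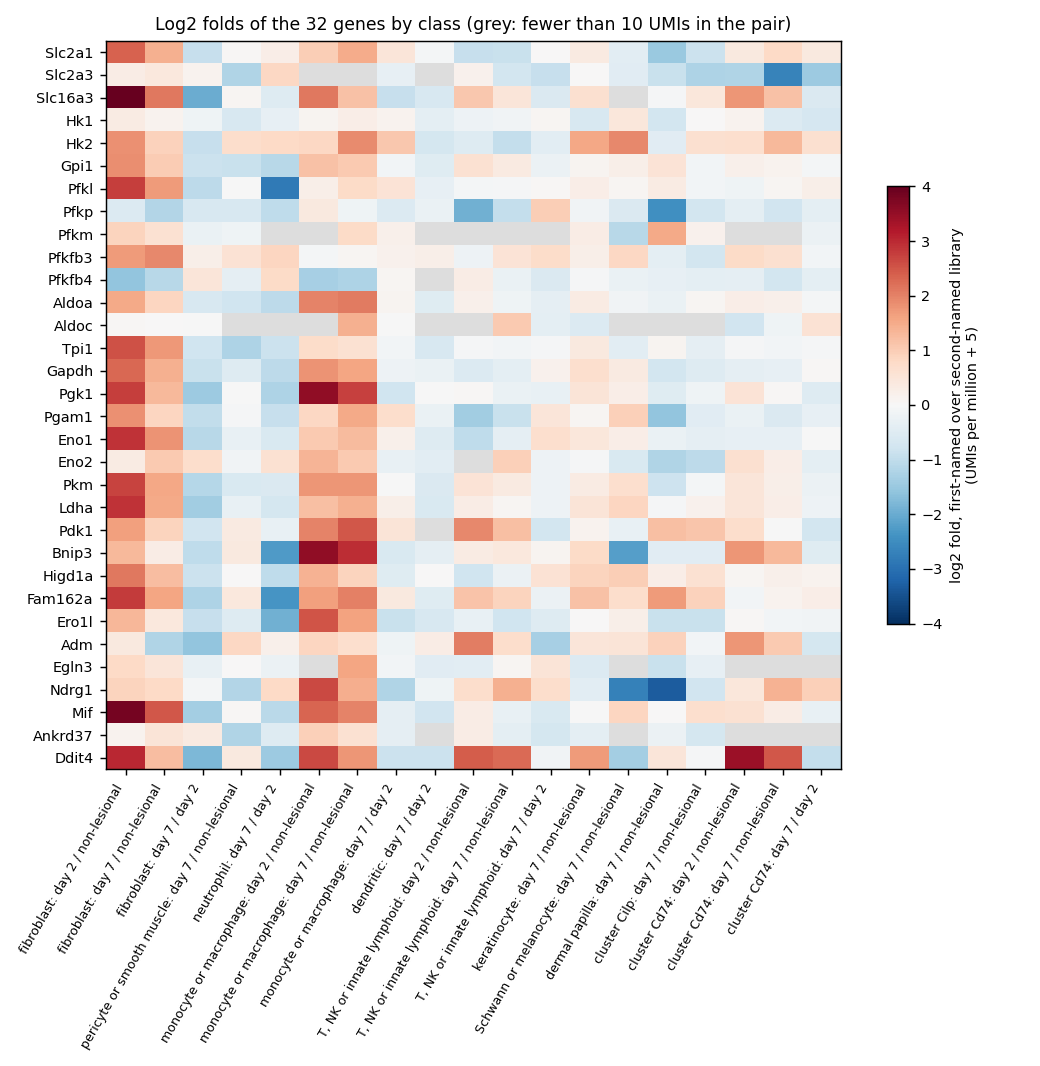
Log2 fold of each member, colour scaled, in each class and pair of libraries compared. The 4 columns of fibroblast-like and monocyte- or macrophage-like cells against non-lesional skin hold mostly positive values, with medians of 1.76 and 1.27 at day 2, and Pfkfb4 is negative in all 4 of those columns.

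The class with the highest level of a member also differed between libraries. The classes that could be highest differed too, since those with few cells in a library were left out. Among those left out were Schwann or melanocyte-like cells at day 2 (3 cells) and neutrophil-like cells in non-lesional skin (5 cells). The counts over all genes are not given here. At day 2 it was the fibroblast-like class for 11 of the 32 members, the monocyte- or macrophage-like class for 8 and the neutrophil-like class for 6. At day 7 it was the monocyte- or macrophage-like class for 11, the neutrophil-like class for 5 and the fibroblast-like class for 1, Hk2. In non-lesional skin fibroblast-like cells were highest for none. There the cluster led by Acta2, Myh11 and Des (67 cells) was highest for 10 members and the pericyte or smooth muscle-like class for 6.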

How the data were processed

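Per the labels, dorsal skin and wound bed cells were run on Chromium 3' v2 chemistry and sequenced on a NovaSeq, 1 library per group. Per the submitters' processing notes, Cell Ranger 3.0.2, Seurat 3.0 and the mm10 build were used, while the header of the deposited matrices names Cell Ranger 5.0.0. The difference could not be settled. What the authors deposited are unnormalized UMI counts for each gene and barcode, and the aligner settings are not given in the sources used here.

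Barcodes with at least 200 genes and at most 10% mitochondrial UMIs were kept. Doublets were scored against simulated pairs and the top 0.8% per 1000 barcodes of each library removed. Cells were clustered (2000 variable genes without the members and lists, 30 components, 20 neighbours, Leiden resolution 1) and classes named from fixed markers, at least 3 of them detected. These names are rebuilt and may differ from those of the study. Erythroid-like cells and a cluster led by Pecam1 and Selp also held many fibroblast UMIs and entered no comparison.

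Counts were summed per class and library and turned into CPM. Classes with at least 50 cells in both libraries were compared by log2 of (CPM + 5), with no test across replicates, since each group has 1 library. A fold against 0 UMIs used a floor of 3 counts over the class, which is a set value and not the limit of the exact interval. Intervals and floors cover counting error only, since PCR copies are removed by UMIs but cells, mice and libraries are not replicated. Free RNA was estimated, for each library, from the level of collagen and Sparc or of S100a8, S100a9 and Retnlg in the receiving class, taking the highest ratio to the source class, so each share is an upper limit. Gene positions are those of GENCODE M21 on GRCm38.

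All 32 members were followed. Named in full were members at least 2-fold different in fibroblast-like cells in any pair, the 4 largest differences per direction in other classes (at least 20 CPM and 10 UMIs) and up to 4 genes of each other list. One listed gene outside the members is not reported here and is in no list count. The members and lists were chosen with earlier results of these data known. Alternatives covered scaling (TMM, median of ratios, CPM without the members), a pseudocount of 1 CPM, no minimum of UMIs, thinning to 1000 UMIs, cell filters (500 genes, 20% mitochondrial), doublets kept, resolution 2, members used in clustering, classes given cell by cell, and leaving out proliferating clusters. Leaving out cells with Mki67 or Top2a UMIs, adding the Cilp cluster and a fold of at least 1.5 were added after the data were seen. Tools were Python 3.11.15, numpy 2.4.6, scipy 1.17.1, pandas 2.3.3, scikit-learn 1.9.0, leidenalg 0.10.2, matplotlib 3.10.9 and, for TMM, edgeR 4.0.16 in R 4.3.3.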

Additional observations from a re-analysis of the deposited data

Results flagged for a closer look

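The differences named here ran one way in a class of cells and the opposite way in fibroblast-like cells of the same pair of libraries, past the 2-fold call in both. There is 1 library per group, so none of these differences between classes was tested.

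Against non-lesional skin at day 2, lymphoid-like cells had lower Pgam1, with 72.0 CPM at day 2 against 196 CPM in non-lesional skin (log2 fold -1.38), where fibroblast-like cells had 453 against 123 CPM (1.84). Eno1 in the same cells had 96.0 against 199 CPM (-1.01), and in fibroblast-like cells 324 against 39.4 CPM (2.89). The day 2 levels of lymphoid-like cells rest on 21 UMIs for Pgam1 and 28 for Eno1. Members called in that class at day 2 were near the share of all genes called. The clusters that made up the lymphoid-like class and its median UMIs also differed between these libraries, and their part was not tested.

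Against non-lesional skin at day 7, dermal papilla-like cells had lower Slc2a1, with 6.597 CPM at day 7 against 27.6 CPM in non-lesional skin (-1.49), where fibroblast-like cells had 25.5 against 6.49 CPM (1.41). Eno2 had 8.68 against 26.2 CPM in dermal papilla-like cells (-1.19) and 11.3 against 28.5 CPM in the cluster led by Cilp (-1.04), and 16.6 against 5.54 CPM in fibroblast-like cells (1.04). Pericyte or smooth muscle-like cells had lower Tpi1, with 174 against 413 CPM (-1.22), where fibroblast-like cells had 226 against 64.6 CPM (1.73). Schwann or melanocyte-like cells had lower Ddit4, with 35.5 against 98.4 CPM (-1.35), where fibroblast-like cells had 51.8 against 19.3 CPM (1.22). The cluster led by Cd74 had higher Adm, with 8.16 against 1.37 CPM (1.05, on 1 UMI in non-lesional skin), where fibroblast-like cells had 33.8 against 84.1 CPM (-1.20).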

How the results depend on the processing

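No paired analysis was possible because each group has 1 library. Over the alternatives that kept the 2-fold limit, the members higher in fibroblast-like cells numbered 21 to 23 at day 2 and 11 to 20 at day 7 against non-lesional skin, and 10 to 16 were lower at day 7 than at day 2. With a fold of at least 1.5 these counts were 24, 22 and 22 (main values 21, 16 and 11). Of the counts for fibroblast-like, neutrophil-like and monocyte- or macrophage-like cells, 175 under an alternative were within 1.5 times the main count and 19 moved, and of all other values 349 stayed within their limit and 141 moved. With the 2-fold limit kept, members called higher in lymphoid-like cells ranged from 2 to 8 against non-lesional skin at each time (main values 5 at day 2 and 4 at day 7), and in Schwann or melanocyte-like cells at day 7 from 1 to 6 (main value 1, and 8 with a fold of at least 1.5). At day 7 against non-lesional skin, those higher in keratinocyte-like cells ranged from 3 to 5 (main value 3, and 7 at 1.5-fold), and those lower from 4 to 11 in dermal papilla-like cells (main value 5, and 11 at 1.5-fold) and from 3 to 6 in pericyte or smooth muscle-like cells (main value 4, and 9 at 1.5-fold). At 1.5-fold, fibroblast-like cells at day 7 against day 2 had 1 member higher (main value 0). Without proliferating clusters 1 member was lower at day 7 against non-lesional skin (main value 3). All day 2 fibroblast-like clusters proliferate by that score, so it gave no value for pairs with day 2.

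In neutrophil-like cells at day 7 against day 2, 6 members were higher with a fold of at least 1.5 and 1 when thinned (main value 0). In monocyte- or macrophage-like cells the member lower against non-lesional skin (main value 1 at each time) became 0 when thinned at day 2 and at day 7, 0 at day 2 and 2 at day 7 with classes given cell by cell. At day 7 against day 2 (main values 1 higher and 1 lower) they had 0 higher and 5 lower with TMM, 0 and 4 with median of ratios, 2 and 6 with a fold of at least 1.5, 2 higher with classes given cell by cell, 0 higher when thinned, and 2 lower at resolution 2 or with doublets kept. The causes were not tested.

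The sign turned for Adm in fibroblast-like cells at day 7 against non-lesional skin without proliferating clusters (0.37), for Fam162a (-0.14, day 2 against non-lesional skin) and Adm (0.21, day 7 against day 2) in lymphoid-like cells with classes given cell by cell, and for Eno2 in thinned dermal papilla-like cells at day 7 against non-lesional skin (0.04).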
